A study of Homo sapiens with 5 samples.

Results

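The genes described here were expressed in parental TOV21G cells, were retained in one clone resistant to an EZH2 inhibitor, and were reduced to at most 0.2 of the parental level in another. They were chosen from the measured counts themselves. A protein-coding gene was a member when it had at least 1 CPM (counts scaled to the library total) in parental cells, lay between 0.5 and 2 times the parental CPM in both clone 3 libraries, and lay at or below 0.2 times the parental CPM in both clone 4 libraries. Symbols beginning with HOX, KRT, COL, PCDH, ZNF, ABC or SLFN were left out, which removed 7 genes (ABCC6, ZNF10, ZNF181, ZNF234, ZNF239, ZNF572 and ZNF891). The rule gave 76 genes of 11715 protein-coding genes with at least 1 CPM in parental cells (0.649%), in a table of 30476 genes. Because the rule used every library, the difference between clone 4 and the other cells is given below as a description of the members, without a test.

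TOV21G is an established ARID1A-mutated ovarian clear cell carcinoma line, and GSK126 inhibits EZH2, the catalytic subunit of PRC2. Cells resistant to it (EIR, for EZH2 inhibitor-resistant) had been obtained by stepwise exposure to GSK126, starting at 5 uM and ending at 20 uM, after which clones were picked. RNA-seq covered 5 libraries: untreated parental cells (1 library), EIR clone 3 untreated and GSK126-treated (1 library each), and EIR clone 4 untreated and GSK126-treated (1 library each). Both resistant lines share the ARID1A-mutated background and the GSK126 selection, and each is 1 picked clone, so a difference between clone 4 and clone 3 is a difference between 2 clones. How much GSK126 the treated cultures received, and for how long, is not given in the sources used here. Total counts ranged from 25479238 to 30764963 per library, at which 3 counts correspond to 0.0975 to 0.118 CPM. The line was checked against marker lists. PAX8 (Mullerian lineage) and keratin genes were present in every library, while markers of leukocytes, endothelium and neural cells summed to at most 3.73 CPM per list and none of those tested was called different between the clones. Of 6 tested epithelial markers other than EPCAM, KRT8 (log2 difference -0.65) and NAPSA (-3.27) were lower in clone 4 than in clone 3. The KRT8 call was lost without GSK126-treated clone 3 or with edgeR, and that of NAPSA without either clone 3 library. NAPSA had 2 counts in parental cells, 53 and 50 in clone 3, and 6 and 4 in clone 4. It was thus scarce in parental cells and higher in clone 3. SOX17 had at most 1 count per library. In bulk RNA, fewer cells with a transcript and less RNA per cell cannot be told apart.

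PRC2 deposits a repressive methyl mark on histone H3 at many developmental and lineage genes, and the SWI/SNF complex that contains ARID1A opposes it. Epithelial cells hold together through desmosomes, tight junctions and adherens junctions, in which transmembrane proteins are tied to keratin or actin filaments by plaque proteins such as desmoplakin. Promoters of such genes commonly carry CpG islands, stretches rich in CG dinucleotides where DNA methylation can accompany stable silencing. Neither methylation nor histone marks were measured in these libraries.

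Promoters (250 bases before to 50 after the start) were found for 62 of the 76 members in the RefSeq table of build GRCh38.p14, and 59 of them were placed on GRCh37, the build of the counts, by an exact match. Of the 62, 45 (72.6%, 95% Wilson interval 60.4 to 82.1) were in a CpG class, defined as an observed-to-expected CG ratio of at least 0.6 and a GC content of at least 50%. The share was 82.9% over 9556 promoters of expressed coding genes and 46.9% over 27305 promoters. The 14 members without an entry were CAVIN1, EEF1A2, ENSG00000241962, EPCAM, GALNT6, GCH1, HYDIN, IGF2BP1, LRP4, MAL2, PWWP2B, RFLNB, SIM2 and SLC29A2. Printed are the promoters of the 5 members with the least left in clone 4 among those placed on GRCh37, with every CG in capitals. They are TFCP2 (chr12:51566869-51567168, minus strand), PBDC1 (chrX:75392647-75392946, plus strand), ZSCAN18 (chr19:58629722-58630021, minus strand), DSP (chr6:7541654-7541953, plus strand) and BCHE (chr3:165555162-165555461, minus strand), all on GRCh37 and written 5′ to 3′ along the gene.
TFCP2: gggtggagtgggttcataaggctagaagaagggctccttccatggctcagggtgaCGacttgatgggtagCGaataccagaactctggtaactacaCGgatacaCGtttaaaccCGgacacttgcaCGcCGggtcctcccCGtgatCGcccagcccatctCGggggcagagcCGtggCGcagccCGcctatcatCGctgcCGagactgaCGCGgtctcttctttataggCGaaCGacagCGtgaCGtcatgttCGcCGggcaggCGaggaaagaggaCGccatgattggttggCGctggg
PBDC1: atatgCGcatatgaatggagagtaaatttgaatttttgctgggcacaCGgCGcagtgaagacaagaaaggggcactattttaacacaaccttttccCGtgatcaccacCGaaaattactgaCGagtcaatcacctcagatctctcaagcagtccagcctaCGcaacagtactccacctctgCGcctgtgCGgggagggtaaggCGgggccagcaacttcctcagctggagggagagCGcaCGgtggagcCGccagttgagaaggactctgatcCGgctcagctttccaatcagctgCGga
ZSCAN18: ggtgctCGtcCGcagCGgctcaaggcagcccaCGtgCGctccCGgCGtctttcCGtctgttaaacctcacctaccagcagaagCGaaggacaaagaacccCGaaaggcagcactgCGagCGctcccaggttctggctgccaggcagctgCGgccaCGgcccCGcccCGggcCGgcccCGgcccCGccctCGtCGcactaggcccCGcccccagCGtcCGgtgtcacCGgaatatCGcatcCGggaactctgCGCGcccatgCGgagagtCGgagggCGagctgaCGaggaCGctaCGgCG
DSP: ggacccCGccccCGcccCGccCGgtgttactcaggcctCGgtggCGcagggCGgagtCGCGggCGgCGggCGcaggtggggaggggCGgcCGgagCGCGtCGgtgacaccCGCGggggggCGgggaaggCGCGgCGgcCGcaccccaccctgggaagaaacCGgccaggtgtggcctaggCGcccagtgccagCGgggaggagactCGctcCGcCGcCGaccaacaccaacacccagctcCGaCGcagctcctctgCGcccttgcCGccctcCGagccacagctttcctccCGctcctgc
BCHE: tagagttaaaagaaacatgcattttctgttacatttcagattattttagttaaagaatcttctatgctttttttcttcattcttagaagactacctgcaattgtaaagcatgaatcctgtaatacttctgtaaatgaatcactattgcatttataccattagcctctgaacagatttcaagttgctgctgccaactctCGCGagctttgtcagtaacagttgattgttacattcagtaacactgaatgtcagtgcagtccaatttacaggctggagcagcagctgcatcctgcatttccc

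Over the 62 member promoters the number of CG dinucleotides ran from 2 to 55 (LRFN4), with a median of 25.5. DSP holds 37 CG dinucleotides at 77.0% GC and ZSCAN18 holds 36 at 70.3%, TFCP2 holds 26 and PBDC1 holds 15, and all 4 are in the CpG class. BCHE holds 2 at 36.7% GC and is outside it. Members with almost no transcript in clone 4 thus had promoters of both kinds. The motif TATAAA was in 11.3% of member promoters, 5.13% of those of expressed coding genes and 12.0% of all promoters, searched on both strands. The other motifs searched were GGGCGG (71.0% of member promoters, 71.8% of expressed, 44.6% of all), TGANTCA (6.45%, 4.11% and 7.76%) and CACGTG (8.06%, 10.3% and 7.43%). A match describes letters in this window and not a binding site.

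Together the 76 members summed to 2819 CPM in parental cells. The sum was 2173 CPM in untreated and 2280 CPM in GSK126-treated clone 3, and 206.5 and 277.9 CPM in clone 4. By the rule the clone 4 values lie below all others. The median member stood at 76.2% and 77.5% of its parental CPM in clone 3 and at 4.89% and 10.5% in clone 4, untreated and treated. In clone 3, 45 members were below parental in both libraries and 22 above in both. Over both clone 4 libraries pooled, the share left ranged from 0.136% (EPCAM) to 19.6% (DOK1), with a median of 7.96%. No member had 0 counts in both clone 4 libraries, 7 had 0 in 1 of them, 12 had 3 counts or fewer in both, and 15 still had at least 100 counts in both.

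**Figure D1:**
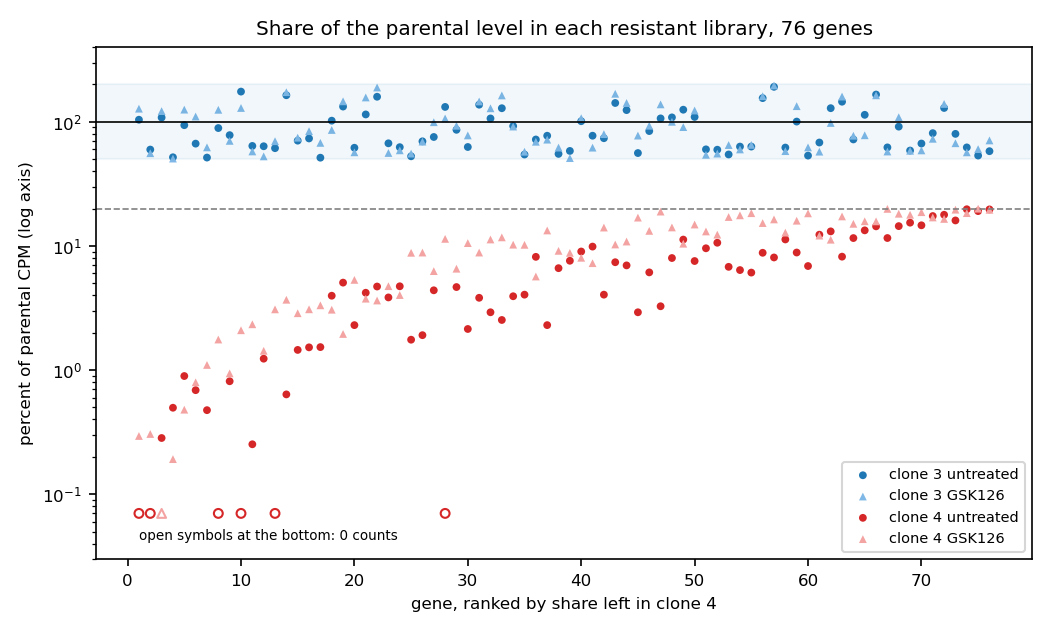
The level of each of the 76 genes in the 4 resistant libraries, as a percent of the parental CPM (log axis), with genes ranked by the share left in clone 4. The shaded band and the dashed line mark the limits of the rule (0.5 to 2 times and 0.2 times parental), and open symbols at the bottom are libraries with 0 counts. The clone 4 points run from under 1% up to the limit without a gap, while the clone 3 points fill the band.

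The limit of 0.2 cut through a continuous range. The members just inside were GALM, CAMK1 and LRP4, whose higher clone 4 library stood at 19.9%, 19.7% and 19.9% of parental. Just outside were PGGHG (20.1%) and PSMB8 (20.2%). At a limit of 0.1 the rule kept 34 genes, at 0.3 it gave 123, and without the GSK126-treated clone 4 library it gave 124.

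Adhesion and matrix genes made up 9 members: NID2, DSP, ICAM1, OCLN, CNTNAP1, EPCAM, HAPLN3, SMAGP and LRFN4. DSP (desmoplakin, chr6:7541571-7586947), the plaque protein that ties desmosomes to keratin filaments, had 6108 counts in parental cells, 5910 and 7511 in clone 3 (untreated and treated), and 54 and 25 in clone 4. Its share left was 0.702% (95% exact interval 0.555 to 0.876), the lowest among the 20 most abundant members. Here and below, such intervals cover counting error only, since PCR reads without molecular identifiers are not independent molecules. EPCAM (chr2:47572297-47614740), an epithelial cell adhesion molecule that is also a textbook marker of carcinoma cells, had 398 counts in parental cells, 426 and 498 in clone 3, and 0 and 1 in clone 4. OCLN, the tight junction protein occludin, had 1112 counts, then 1663 and 1742 in clone 3 and 90 and 164 in clone 4. In all of these the clone 3 libraries were close to or above parental cells, and clone 4 lay far below.

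NID2 (nidogen 2, a basement membrane glycoprotein) was the most abundant member. It had 361 CPM in parental cells, 216 and 196 CPM in clone 3, and 34.6 and 47.2 CPM in clone 4. Clone 3 was thus already below parental, and clone 4 retained 11.2% (10.7 to 11.7). ICAM1, a ligand of leukocyte integrins, had 2291 counts in parental cells, 1406 and 1246 in clone 3, and 240 and 241 in clone 4. CNTNAP1, an adhesion protein of axon-glia contacts, had 676 counts in parental cells, 1154 and 1084 in clone 3, and 96 and 91 in clone 4. SMAGP had 104, 60, 79, 3 and 15 counts in the same library order, and LRFN4, a synaptic adhesion protein, had 104, 114, 131, 3 and 10. The class as a whole retained 0.136% to 15.0% in clone 4, with a median of 9.40%.

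**Figure D2:**
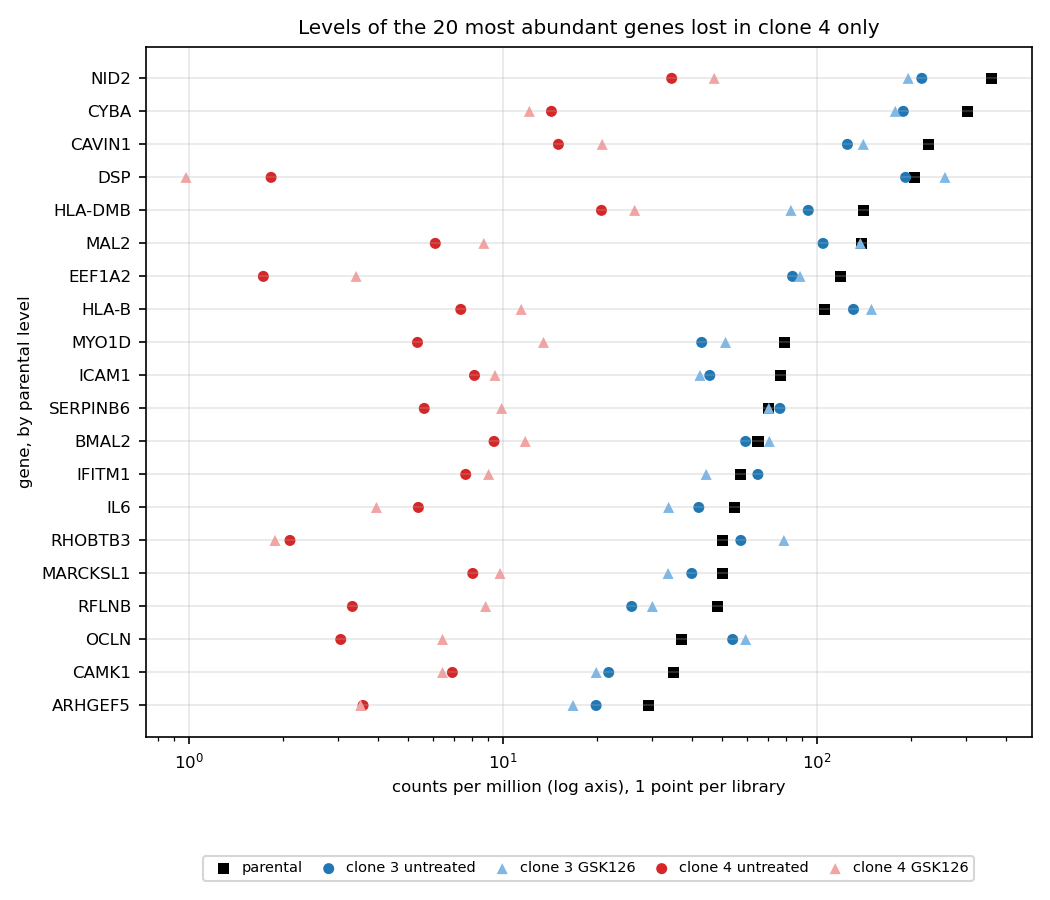
CPM (log axis) of the 20 members with the highest parental level, 1 point per library. The 2 clone 4 points of each gene lie to the left of its other 3 points, from 1.83 and 0.981 CPM for DSP to 34.6 and 47.2 CPM for NID2. The clone 3 points lie nearer the parental square, for most of these genes to its left.

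Secreted ligands and receptors made up 7 members: HLA-DMB, HLA-B, IL6, TNF, LRP4, EGFL7 and S1PR3. IL6, an inflammatory cytokine, had 1630 counts in parental cells, 1297 and 990 in clone 3, and 159 and 101 in clone 4. TNF, another such cytokine, had 804 counts, then 1066 and 772 in clone 3 and 104 and 77 in clone 4. HLA-B, a class I antigen-presenting molecule, had 3153 counts, then 4034 and 4383 in clone 3 and 217 and 292 in clone 4. The clone 4 libraries of these 3 genes all lay far below the other 3 libraries, with 8.66%, 12.2% and 8.76% of the parental level left. HLA-DMB, which helps load peptides onto class II molecules, was less reduced, with 4206 counts in parental cells, 2895 and 2427 in clone 3, and 609 and 671 in clone 4 (16.5% left). LRP4, a receptor of the LDL receptor family, had 796, 510, 450, 91 and 135 counts. Reads of HLA genes are similar to each other, so their counts depend on how the authors' counting divided them.

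Cytoskeleton, trafficking and protein turnover genes were the largest class, with 14 members: CAVIN1, MAL2, MYO1D, SERPINB6, MARCKSL1, RFLNB, MYO6, SH3PXD2A, PSTPIP2, SPATA18, MYO5C, HECW2, CORO6 and HYDIN. CAVIN1, a coat protein of caveolae, had 228 CPM in parental cells, 125 and 141 CPM in clone 3, and 15.1 and 20.8 CPM in clone 4. MAL2, a membrane protein of apical transport in epithelial cells, had 139 CPM in parental cells, 105 and 138 CPM in clone 3, and 6.11 and 8.71 CPM in clone 4. SH3PXD2A, a scaffold of matrix-degrading protrusions, had 623 counts in parental cells, 501 and 429 in clone 3, and 5 in each clone 4 library. The share left thus ran from 7.78% for CAVIN1 and 5.26% for MAL2 down to 0.871% for SH3PXD2A.

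Among these members were 3 unconventional myosins, actin motors that move membranes and cargo. MYO1D had 2358 counts in parental cells, 1325 and 1503 in clone 3, and 158 and 344 in clone 4. MYO6, which walks toward the minus end of actin, had 860 counts, then 746 and 784, and 52 and 97. MYO5C had 212, then 300 and 303, and 8 and 16. All 3 were higher in treated than in untreated clone 4. SERPINB6, an intracellular protease inhibitor, had 2104 counts in parental cells, 2352 and 2064 in clone 3, and 166 and 253 in clone 4. MARCKSL1, an actin-regulating kinase substrate, had 1496 counts, then 1232 and 986, and 237 and 250. RFLNB, a filamin-binding protein, had 1441, then 793 and 879, and 98 and 225. HYDIN, a protein of motile cilia, was scarce everywhere (56, 101, 71, 0 and 1 counts).

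Transcription and chromatin genes made up 8 members: BMAL2, TFCP2, ZSCAN18, SIM2, NPAS2, BCL11A, PWWP2B and MCIDAS. TFCP2 (chr12:51487439-51566918), a transcription factor related to grainyhead proteins, had 767 counts in parental cells, 472 and 420 in clone 3, and 0 and 2 in clone 4, which leaves 0.142% (0.0171 to 0.513). ZSCAN18, a SCAN-domain zinc finger protein, had 611 counts, then 326 and 303 in clone 3, and 3 and 1 in clone 4. SIM2, a bHLH-PAS transcription factor, had 213, then 113 and 130, and 1 and 2. For these 3 genes the clone 3 libraries stood at 50.5% to 62.2% of parental, and each clone 4 library held 3 counts or fewer. BMAL2 and NPAS2, bHLH-PAS partners of the circadian activator pair, were lower to different degrees. BMAL2 had 1942, 1829, 2072, 277 and 301 counts and NPAS2 had 80, 106, 128, 2 and 8, in the order parental, clone 3 untreated and treated, clone 4 untreated and treated. MCIDAS, a regulator of multiciliated cells, had 50, 38, 39, 2 and 6 counts.

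Enzymes made up 8 members: CYBA, BLVRA, GALM, GCH1, GALNT6, CYBRD1, BCHE and PDE6B. CYBA, the p22phox membrane subunit of NADPH oxidases, was the second most abundant member, with 303 CPM in parental cells, 189 and 178 CPM in clone 3, and 14.3 and 12.2 CPM in clone 4. It was also first per length, at 72.8 RPKM (reads per kilobase of exon, scaled to the library total as CPM) in parental cells. BCHE (butyrylcholinesterase) had 147 counts in parental cells, 101 and 159 in clone 3, and 1 in each clone 4 library. GALNT6, which starts mucin-type O-glycans, had 258 counts, then 423 and 478, and 12 and 8. GALM, the galactose mutarotase, had 552, then 304 and 326, and 104 and 94. BLVRA (biliverdin reductase) had 700, then 393 and 394, and 28 and 61. The class therefore ran from BCHE with 0.738% left to GALM with 19.5%.

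Intracellular signalling genes made up 12 members: RHOBTB3, CAMK1, ARHGEF5, RASGRP1, RASSF4, ARHGEF16, TGFB1I1, PLEKHG5, EPS8L1, LRRK1, DOK1 and ARHGAP32. RHOBTB3, the most abundant of them, had 1496 counts in parental cells, 1766 and 2305 in clone 3, and 62 and 48 in clone 4. LRRK1, a leucine-rich repeat kinase, had 133 counts, then 122 and 163, and 0 and 2. TGFB1I1, a focal adhesion adaptor, had 246, then 161 and 127, and 3 in each clone 4 library. CAMK1, a calcium- and calmodulin-dependent kinase, had 1046, then 670 and 582, and 204 and 164. ARHGEF5, ARHGEF16, PLEKHG5 and ARHGAP32 encode regulators of small GTPases. ARHGEF16 had 301, 593, 579, 24 and 42 counts and ARHGEF5 had 871, 611, 491, 106 and 90. ARHGEF5 shares sequence with ARHGEF35 and the pseudogene ARHGEF34P, so its counts are uncertain. The class retained 0.816% to 19.6%, with a median of 11.9%.

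RNA, DNA and nuclear process genes made up 4 members: EEF1A2, IGF2BP1, CELF2 and RBFOX3. EEF1A2, a translation elongation factor isoform normally restricted to a few tissues, had 3553 counts in parental cells, 2580 and 2595 in clone 3, and 51 and 87 in clone 4. IGF2BP1, an mRNA-binding protein of fetal tissues, had 797 counts, then 603 and 657, and 12 and 21. Both retained little, at 2.11% and 2.25%. CELF2 and RBFOX3, splicing regulators, retained 2.36% and 11.8%. Channels and transporters made up 2 members, the nucleoside transporter gene SLC29A2 (206, 196, 185, 8 and 18 counts) and the potassium channel subunit gene KCNS3. The other 12 members were not placed in a role class: IFITM1, PLP2, TP53I11, PBDC1, ENSG00000241962, IQCA1, PRR15, MEGF6, GLIPR2, GPR137B, CNFN and PLLP. Among them PBDC1 (chrX:75392875-75398149) had 357 counts in parental cells, 398 and 427 in clone 3, and 1 and 0 in clone 4. IFITM1, an interferon-induced membrane protein, had 1707 counts, then 2001 and 1304, and 225 and 230. PLLP, a myelin and epithelial membrane protein, had 38, 24, 26, 0 and 1 counts.

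Other genes of the members' pathways were read from a fit of clone 4 against clone 3 over all genes (DESeq2, treatment as covariate, Benjamini-Hochberg adjusted p under 0.05, 2 libraries per clone). Such p-values measure the spread left between these libraries once treatment and clone are fitted. The 2 libraries of a clone are 1 untreated and 1 GSK126-treated culture and no replicates, and each side is 1 clone. Over all 17708 genes tested, 6.52% were called lower and 3.3% higher in clone 4. In that fit 73 of the 76 members were called lower, and all 76 by edgeR (4.26% of all genes lower, 2.01% higher), which the rule had fixed, with DESeq2 log2 differences of -9.74 to -1.56. The junction, myosin, bHLH-PAS, clock, caveola, NADPH oxidase, IGF2BP, eEF1A, CELF and RBFOX, and HLA lists were drawn up after values were seen, and their genes were named likewise.

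Of 10 tested desmosome genes other than DSP, 3 were lower in clone 4 and none higher. DSC2, a desmosomal cadherin, had 147 and 134 counts in clone 3 against 1 and 0 in clone 4 (6 in parental cells), a log2 difference of -8.03 ± 1.52 (SE, adjusted p = 4.41e-06). PKP3, a plaque protein, had 411 and 440 against 52 and 88 (-2.53 ± 0.36), with 285 in parental cells. JUP had 1143 and 856 against 433 and 476 (-1.01 ± 0.24), with 1682 in parental cells. The JUP call was lost without the untreated clone 3 library (-0.86). DSG2, the most abundant desmosomal cadherin, was at 6871 and 7529 counts in clone 3 against 4974 and 6105 in clone 4 (-0.27 ± 0.16, adjusted p = 0.4065). DSP and DSC2 were thus near 0 in clone 4, PKP3 and JUP were lower but present, and DSG2, PKP2 and PKP4 were not called.

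Of 14 tested tight junction genes other than OCLN, 4 were lower and none higher. CLDN1 (claudin 1) had 20809 and 17335 counts in clone 3 against 6860 and 6455 in clone 4 (-1.40 ± 0.16, adjusted p = 1.378e-16). With 11620 counts in parental cells, CLDN1 was above them in clone 3 and below them in clone 4. F11R had 1133 and 1097 against 369 and 345 (-1.53 ± 0.23), with 1133 in parental cells. TJP3 was lower in clone 4 by 2.53 ± 0.76 in the same units, a call lost without either clone 3 library. It had 282 counts in parental cells, 73 and 75 in clone 3, and 8 and 17 in clone 4. Clone 3 was thus already far below parental cells for TJP3. TJP1, the scaffold ZO-1, was at 5988, 5959, 6108 and 6207 counts in the 4 EIR libraries (0.15 ± 0.16, adjusted p = 0.7589). Of 9 adherens junction genes, CDH1 (E-cadherin) and CDH2 were lower and none higher. CDH1 had 108 and 148 counts in clone 3 against 2 and 4 in clone 4 (-5.33 ± 0.83), with 6 in parental cells. The CDH1 and DSC2 levels in clone 3 thus stood above those of parental cells. CDH2 changed by -0.69 ± 0.19, a call lost without either clone 3 library. It had 17 counts in parental cells, 1982 and 2090 in clone 3, and 1161 and 1174 in clone 4. Both clones thus stood far above parental cells for CDH2.

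**Figure D3:**
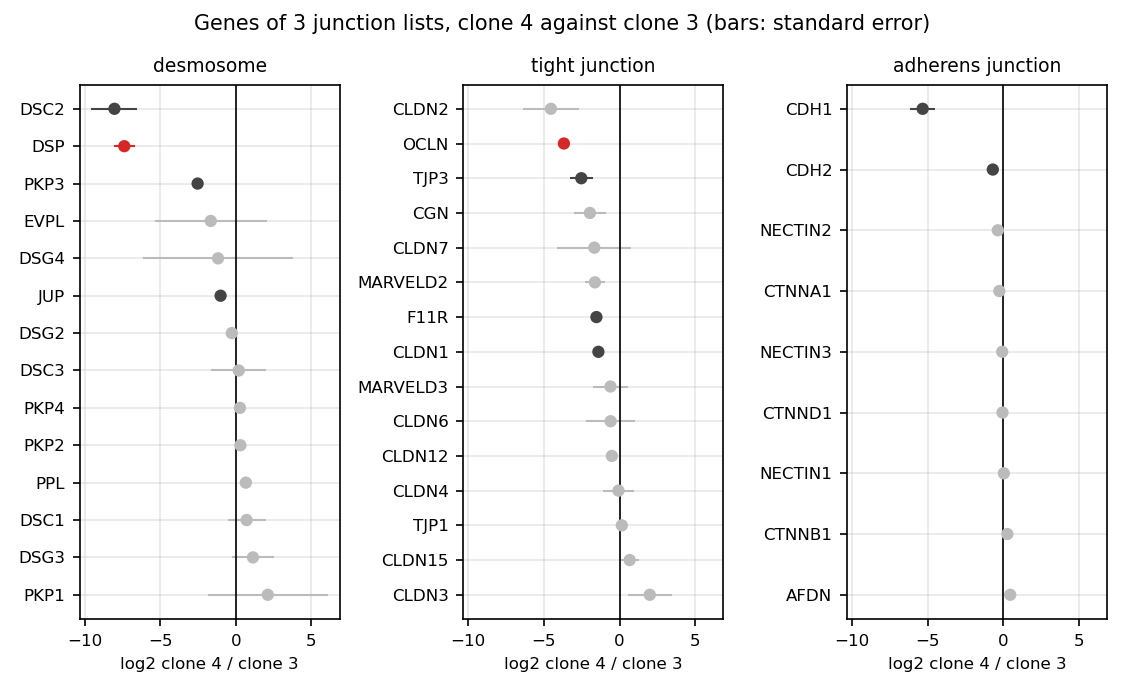
Log2 differences of clone 4 against clone 3 with standard errors for the reported genes of 3 junction lists. Red points are members (DSP and OCLN, chosen for this difference), dark points are other genes with an adjusted p under 0.05, and grey points are genes that were not called or not tested. The dark points all lie below 0, from -8.03 (DSC2) to -0.69 (CDH2), beside uncalled genes such as TJP1, CTNNB1 and DSG2 near 0.

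Several members had close relatives whose transcripts stayed near the clone 3 level. EEF1A1, the common isoform beside EEF1A2, was at 427621 and 382870 counts in clone 3 against 403986 and 321073 in clone 4 (-0.06 ± 0.16, adjusted p = 0.9485). IGF2BP2 and IGF2BP3 differed by -0.04 and -0.22 and were not called. Of 8 clock repressor genes none was called, and BMAL1 and CLOCK, the usual partners in place of BMAL2 and NPAS2, both differed by 0.24 without a call. Among 9 bHLH-PAS genes other than the members, EPAS1 (-1.11 ± 0.21) was lower, a call lost without either clone 3 library and without the treatment covariate. Of 3 CELF and RBFOX genes beside CELF2 and RBFOX3, RBFOX2 (0.48 ± 0.16) was higher, a call lost without either clone 3 library and with edgeR. No other NADPH oxidase subunit was called among 4 tested. Caveola genes other than CAVIN1 had 2 of 5 lower, CAVIN2 (-0.79 ± 0.17) and CAV2 (-1.04 ± 0.20), the latter lost without either clone 4 library. CAVIN2 had 74.3 CPM in parental cells, 209.8 and 236.5 CPM in clone 3, and 125.8 and 135.4 CPM in clone 4. CAV2 had 52.05, 101.4, 149.9, 57.08 and 64.8 CPM in the same order. Unlike CAVIN1, neither was below parental cells in clone 4. An uncalled gene is not shown to be equal between the clones.

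Unconventional myosins other than the 3 members had 3 of 12 lower and 1 higher. MYO10 had 4188 and 4885 counts in clone 3 against 643 and 1097 in clone 4 (-2.32 ± 0.20, adjusted p = 7.695e-30), with 2091 in parental cells. MYO7A (-1.76) and MYO1C (-0.49) were lower and MYO9A (0.49) higher, calls that were lost without either clone 3 library, those of MYO1C and MYO9A also with edgeR, and that of MYO9A also without GSK126-treated clone 4. HLA class I and II genes other than HLA-B and HLA-DMB had 7 of 12 lower and none higher. CD74, the class II invariant chain, had 1265 and 996 counts in clone 3 against 27 and 31 in clone 4, with 16 in the parental library (-5.16 ± 0.31). B2M, the class I light chain, had 14632 and 16217 counts against 8202 and 7032 (-0.91 ± 0.17), with 10952 in parental cells. HLA-E (-0.88) and HLA-DQB1 (-4.34) were also lower, as were HLA-C and HLA-DRB1, whose calls were lost without either clone 3 library. That of HLA-DRB1 was also lost with scaling by total counts and without untreated clone 4. HLA-DQB1 had 10 counts in parental cells, 145 and 118 in clone 3, and 12 and 2 in clone 4. HLA-DRB1 had 8, 75, 62, 14 and 15 counts in the same order. CD74, HLA-DQB1 and HLA-DRB1 were thus scarce in parental cells and higher in clone 3.

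Symbol families of the members, that is other tested coding genes whose symbols share the letters before the first digit (at least 3 letters and 4 to 40 tested genes), held 267 genes in 26 families. In these 28 were lower (10.5%) and 21 higher (7.87%), with a median log2 difference of -0.0388. Among serine protease inhibitors related to SERPINB6, 3 of 4 were lower, led by SERPINB9 (-2.72 ± 0.19) and SERPINB1 (-1.38 ± 0.21), and the third, SERPINB8 (-0.58), lost its call without either clone 3 library or GSK126-treated clone 4. Beside IFITM1, IFITM3 (-2.28 ± 0.27) and IFITM2 (-1.06 ± 0.27) were lower among 3 tested, IFITM2 not without the untreated clone 3 library. SERPINB9 had 1942 counts in parental cells, 3437 and 3176 in clone 3, and 443 and 488 in clone 4. IFITM3 had 309, 1068, 785, 167 and 182 counts in the same order, and IFITM2 had 415, 778, 593, 292 and 310. SERPINB9, IFITM3 and IFITM2 were thus above parental cells in clone 3 and below them in clone 4. The phosphodiesterases related to PDE6B went the other way, with 7 of 20 higher and none lower. PDE3A was at 223 and 221 counts in clone 3 against 2331 and 2251 in clone 4, with 3893 in parental cells (3.48 ± 0.21), so that clone 3 was the one far from parental, and the PDE10A and PDE7B calls were lost without untreated clone 3. Of the GALNT enzymes other than GALNT6, 1 of 14 was lower (GALNT13, with 59 counts in parental cells, 659 and 737 in clone 3 and 0 in both clone 4 libraries) and 1 higher (GALNT10, 0.80 ± 0.19, not without the untreated clone 3 library). Of 13 P4-ATPases 3 were lower and 1 higher. ATP10A had 261 counts in parental cells, 601 and 688 in clone 3 and 0 in both clone 4 libraries. ATP9A was higher (0.96 ± 0.18), with 10298 counts in parental cells, 3321 and 2666 in clone 3, and 5304 and 5405 in clone 4. Both clones were thus below parental cells for ATP9A, clone 3 further. The ATP8B1 (-1.31) and ATP8B2 (-0.83) calls were lost without either clone 3 library, and that of ATP8B1 also without untreated clone 4. ATP8B1 had 38 counts in parental cells, 203 and 234 in clone 3, and 70 and 94 in clone 4, so clone 4 was not below parental. Of 4 NAP1-like genes 1 was lower (NAP1L3, with 6 counts in parental cells, 355 and 340 in clone 3 and 0 in both clone 4 libraries). GALNT13, ATP10A and NAP1L3 stood above 2 times parental in both clone 3 libraries, beyond the upper limit set for members. Of the PRC2 core, EZH2, EZH1 and EED were not called and SUZ12 was higher (0.57 ± 0.18), a call lost without either clone 3 library.

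The members were spread over the genome. They lay on 21 of 23 chromosomes with expressed coding genes counted, with none on chromosomes 13 and 22. Chromosome 2 held the most, 10 members (13.2% of members against 6.8% of expressed coding genes), and chromosome 17 held 7 (9.21% against 5.86%). Within 1 Mb of another member lay 11 of the 76, in 7 pairs. ARHGEF16 and MEGF6 lay 6.84 kb apart on chromosome 1, CAVIN1 and CNTNAP1 259 kb apart on chromosome 17, HLA-B and TNF 208 kb apart on chromosome 6, and SLC29A2 and LRFN4 484 kb apart on chromosome 11. On chromosome 12, TFCP2, SMAGP and GALNT6 lay near each other, with gaps of 71.4 kb between TFCP2 and SMAGP and 80.8 kb between SMAGP and GALNT6. No other group of more than a pair was found at this distance.

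Genes beside the members were compared with all expressed coding genes. Within 500 kb of a member lay 784 such genes that are no members, of which 777 were tested, 65 (8.37%) were lower in clone 4 than in clone 3 and 12 (1.54%) were higher. Among all expressed coding genes that are no members the shares were 6.7% and 4.03%. The median log2 difference was -0.0912 near members and -0.0504 over all. At least 1 neighbour called lower was found for 36 of the 76 members (47.4%) and for 40.1% of the 11639 other expressed coding genes, a difference that was not tested. The nearest expressed coding neighbours, at a median distance of 6.88 kb, numbered 73 genes, of which 6 were lower (8.22%) and 2 higher (2.74%), an alternative chosen after seeing the data. Among the lower ones were STAT3 beside CAVIN1, MFGE8 beside HAPLN3, IFITM2 beside IFITM1, LOXL3 beside DOK1 and ETS1 beside ARHGAP32. STAT3 had 141.4 CPM in parental cells, 138.6 and 135.3 CPM in clone 3, and 67.86 and 84.58 CPM in clone 4. MFGE8, IFITM2, LOXL3 and ETS1 stood above parental cells in both clone 3 libraries. ETS1 had 57.35, 130.5, 136.2, 89.7 and 89.45 CPM in the same order, so clone 4 was not below parental cells. The 2 higher ones were STK17B beside HECW2 and CHSY1 beside LRRK1. The IFITM2 call was lost without untreated clone 3 (-0.92), and those of LOXL3 (-2.57), ETS1 (-0.59), STK17B (0.55) and CHSY1 (0.58) without either clone 3 library, that of STK17B also without untreated clone 4 and with edgeR.

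The neighbourhoods of the members nearest to 0 in clone 4 were read gene by gene. Around EPCAM, all 6 expressed neighbours stood at 77.0% to 135% of the clone 3 level, with a median of 118%. Around DSP, 7 of the 8 neighbours stood at 90.0% to 140.0% and SNRNP48, only 3.48 kb away, was at 109%. The eighth, the readthrough gene BLOC1S5-TXNDC5, stood at 473%, and its counts are uncertain because it shares exons with both parent genes. Around PBDC1, the only expressed neighbour within 500 kb, MAGEE1, stood at 119%. None of the neighbours at these 3 loci was called.

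The TFCP2 locus was mixed. CSRNP2, 9.99 kb away, had 768 and 722 counts in clone 3 against 581 and 623 in clone 4 (-0.20 ± 0.23). POU6F1, 13.8 kb away on the other side, had 40 and 41 counts in clone 3 against 1 and 3 in clone 4, with 193 in the parental library (-4.31 ± 1.23), a call lost without either clone 3 library. METTL7A, the highest at this locus at 282% of the clone 3 level, had 51 and 32 counts in clone 3 against 102 and 112 in clone 4 and was not called (1.51 ± 0.56). DAZAP2, which lies on the opposite strand over part of the member SMAGP, had 3301 and 2919 counts in clone 3 against 2709 and 2514 in clone 4 (-0.14 ± 0.17, adjusted p = 0.8182). The reduced genes of this locus, TFCP2, POU6F1, SMAGP and GALNT6, were thus interleaved with DAZAP2, which was not called. No source used here says if reads were counted by strand, and overlapping genes therefore cannot be fully separated.

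**Figure D4:**
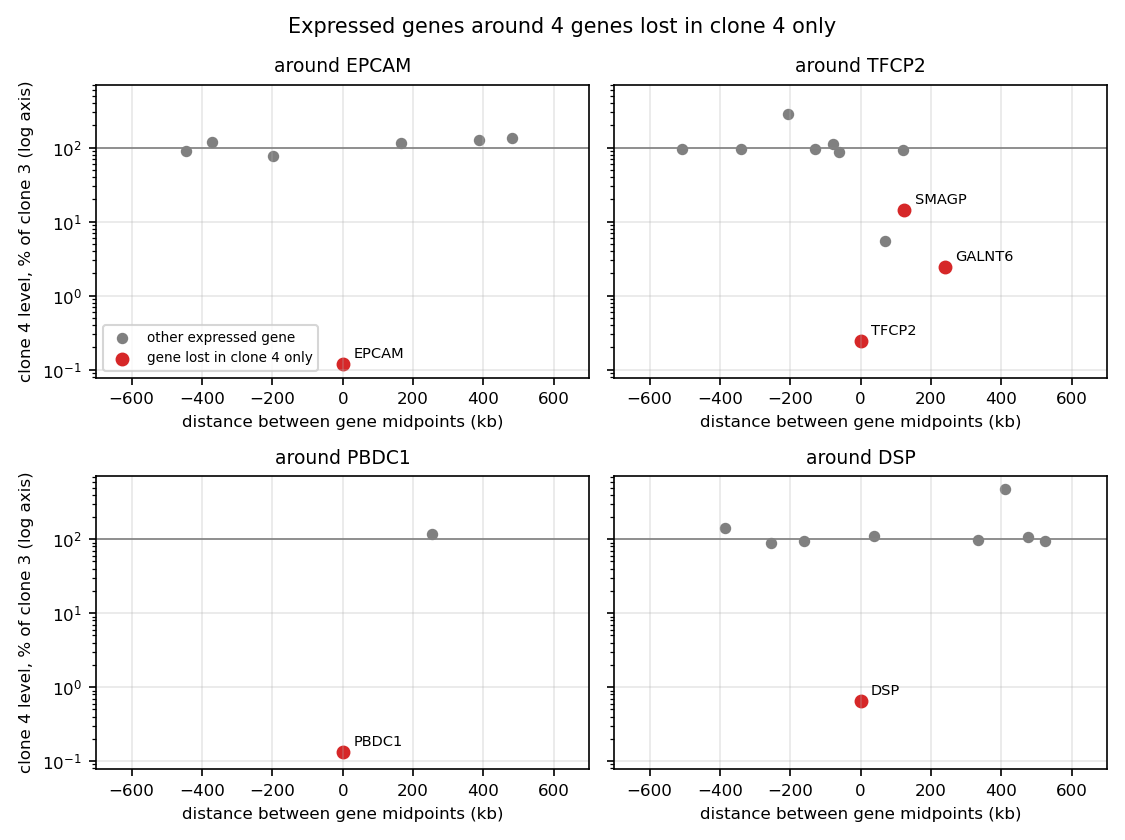
Expressed coding genes around EPCAM, TFCP2, PBDC1 and DSP, with the distance between gene midpoints (kb) on the horizontal axis and the pooled clone 4 level as a percent of clone 3 (log axis). Red points are members and grey points other genes. The members lie between 0.118% (EPCAM) and 14.2% (SMAGP) and the neighbours mostly near 100%, with POU6F1 at 5.4% and METTL7A at 282% beside TFCP2 and BLOC1S5-TXNDC5 at 473% beside DSP.

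Among neighbours whose normalized counts averaged 100 or more, large differences toward lower were those of TPM2 near GLIPR2 (-3.98 ± 0.27) and PSMB8 near HLA-DMB (-3.15 ± 0.25). SERPINB9 near SERPINB6 (-2.72), DDAH2 near TNF (-2.54) and PKP3 near IFITM1 (-2.53) followed. TPM2 had 5184 counts in parental cells, 1319 and 1025 in clone 3, and 81 and 57 in clone 4. DDAH2 had 1383, 396, 330, 71 and 46 counts in the same order, so both were already below parental cells in clone 3. PSMB8 had 742, 1189, 1253, 127 and 128, and like SERPINB9 and PKP3 stood above parental cells in clone 3. DDB2 near LRP4 (1.72 ± 0.19), HK2 near DOK1 (0.96 ± 0.20), PACSIN3 near LRP4 (0.83) and SECISBP2 near S1PR3 (0.75) were the largest toward higher, and the PACSIN3 call was lost without either clone 3 library and that of SECISBP2 without GSK126-treated clone 3. By position, 42 members overlapped another gene of the table, 18 of them a coding one, and 34 overlapped none. ENSG00000241962 overlaps several coding genes (among them TXNDC9, TSGA10 and LIPT1), so its values (185, 251, 193, 0 and 18 counts) are uncertain.

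GSK126-treated cells were compared with untreated cells to ask whether exposure moved these genes within the resistant clones. The rule bounds this contrast but does not choose by it. No member was called (0 of 76) in the fit of the 4 EIR libraries, against 0.00335% of all genes, and 0 members had an unadjusted p under 0.05. This fit counts the gap between the clones, for which the members were chosen, as spread (median SE 1.71 over the members, against 0.50 with the block), so its lack of calls says nothing about the members. When the 2 libraries of each clone were paired by a replicate block, again 0 members were called by DESeq2 (0.0134% of all genes) and 2 had an unadjusted p under 0.05, MYO1D (0.69 ± 0.27) and RFLNB (0.70 ± 0.31), both with an adjusted p = 0.9999. The quasi-likelihood test of edgeR called 0 members with the block (0.00328% of all genes), where 6 had an unadjusted p under 0.05, and 0 without it (0.0% of all genes), where none did.

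In clone 3 the median log2 ratio of treated to untreated was 0.10 over the members, with 47 of 76 (61.8%) higher and 29 lower. Over all 29847 genes tested it was 0.0, with 14691 (49.2%) higher, 12309 lower and the others tied. In clone 4 the median was 0.42 over the members, with 56 of 76 (73.7%) higher and 20 lower. Over all genes it was 0.0187, with 15277 (51.2%) higher, 11854 lower and the others tied. All genes include non-coding and scarce ones, and no member was tied. Many clone 4 values rest on a few reads. Among the 35 members with at least 20 counts in a clone 4 library, the median was 0.18 and 24 were higher. The largest clone 4 ratios among these were those of PLEKHG5 (13 to 31 counts, 1.28), RFLNB (98 to 225, 1.25) and MYO1D (158 to 344, 1.18). Even so, treated clone 4 remained below 0.2 times parental for all 3, as the rule requires. DSP lay the other way, with 54 counts in untreated and 25 in treated clone 4.

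**Figure D5:**
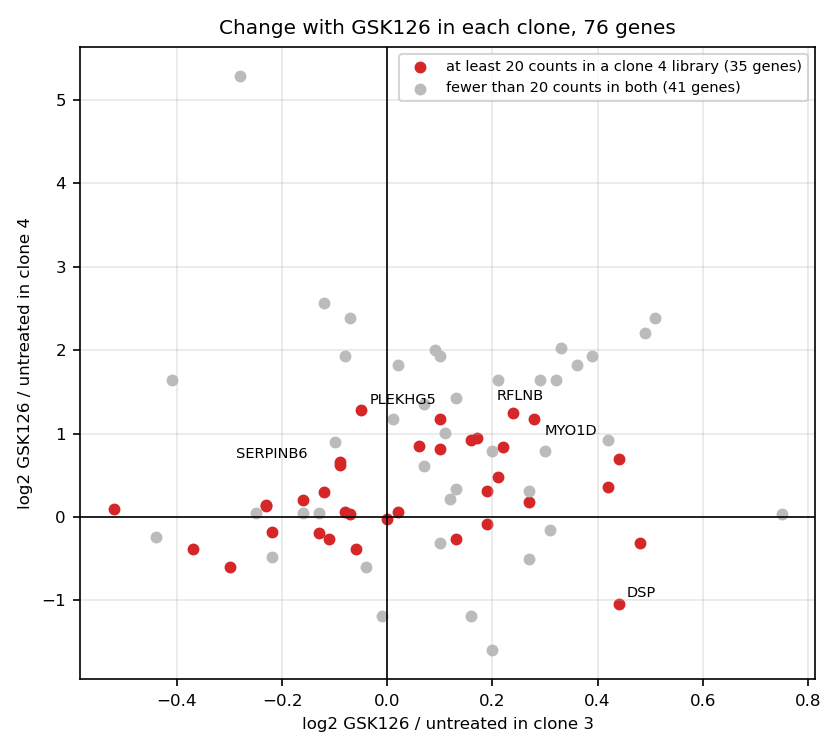
Log2 ratio of GSK126-treated to untreated cells in clone 3 (horizontal) and clone 4 (vertical) for the 76 genes, from normalized counts with a pseudocount of 0.5. Red points have at least 20 counts in a clone 4 library (35 genes) and grey points fewer (41 genes). The vertical spread is much wider than the horizontal one, and the widest points are grey.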

How the data were processed

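RNA-seq libraries were made from total RNA with a stranded kit per the labels. The authors aligned reads to hg19 (GRCh37) with Bowtie2 and estimated counts per gene with RSEM, for which the submitters' processing notes give version 1.2.3. The deposited values are these estimated counts (expected counts, already whole numbers, not normalized) for 30476 Ensembl identifiers in 5 libraries, and 0 columns lacked a sample. Whether counting used the strand is not given in the sources used here. RSEM divides reads shared by similar genes, so counts of paralogs and overlapping genes can move between them.

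Of the identifiers, 29203 (95.8%) were matched to GENCODE release 44 on GRCh37. Members were found from CPM as described. The members and gene lists were chosen with earlier results of these data known. Clone 4 was compared with clone 3 (treatment as covariate) and GSK126-treated with untreated EIR cells, each over the whole table with DESeq2 1.42.0 in R 4.3.3 (Wald test, two-sided, 5% false discovery rate). edgeR 4.0.16, other scalings, a filter of at least 10 counts in 2 libraries and leave-one-out fits were alternatives. The clone number in the labels pairs the treated and untreated library of a clone (correlation of their deviations 0.862 over 11564 genes). Ratios of single libraries used normalized counts with a pseudocount of 0.5.

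Named members were the 20 with the highest parental CPM, those with 3 counts or fewer in both clone 4 libraries (up to 15), those within 1 Mb of another member, those at the limit, and those with the largest clone 4 rises under GSK126 among members with at least 20 counts. Named neighbours were up to 6 lower and 4 higher by log2 difference whose normalized counts averaged 100 or more. Other genes, including the further members described, were chosen after their values were seen. A few genes that the rule names are not reported here.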

Additional observations from a re-analysis of the deposited data

Results flagged for a closer look

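For 5 of the 76 members the ratio of GSK126-treated to untreated cells had opposite signs in the 2 clones, each beyond its counting interval (6.58%). The same held for 15.1% of the 11639 other expressed coding genes. With 1 library per condition and clone, the difference between the clones was not tested. DSP, the desmosomal plaque gene, had a log2 ratio of 0.44 in clone 3 (5910 to 7511 counts) and -1.04 in clone 4 (54 to 25 counts). NID2, the basement membrane gene, had -0.12 in clone 3 and 0.30 in clone 4, SERPINB6 had -0.09 and 0.66, and HLA-DMB had -0.16 and 0.20. ENSG00000241962 had -0.28 in clone 3 and 5.29 in clone 4, where 0 counts became 18, so that the size of the second ratio is set by the pseudocount and is no bound. The counting intervals leave out the spread between cultures.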

How the results depend on the processing

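With 2 libraries per clone and 1 parental library, the spread is that of these libraries. Scaling by median-of-ratios or TMM gave 79 and 80 members (71 and 70 shared). The member count moved to 34 at a clone 4 limit of 0.1, 123 at 0.3 and 34 with clone 3 held to 0.67 to 1.5, and ranged from 84 to 124 when 1 EIR library was left out, the highest without GSK126-treated clone 4. Genes lower in clone 4 than in clone 3 numbered 1154 and, leaving out 1 library, 570 (without GSK126-treated clone 3) to 1774 (without untreated clone 4). Genes higher numbered 584, 926 without the treatment covariate, and 225 (without untreated clone 3) to 1026 (without untreated clone 4) leaving out 1 library. Under GSK126, 1 gene was lower (0 with edgeR, 1 to 22 leaving out 1 library, the most without untreated clone 3) and 0 higher (3 with the replicate block, 0 to 3 leaving out 1 library). No member was called in any of these GSK126 fits. Neighbours called lower were 65 of 777 at 500 kb (8.37%), 43 of 440 at 250 kb (9.77%), 91 of 1239 at 1 Mb (7.34%) and 6 of 73 for the nearest alone (8.22%). Over the same genes 12 (1.54%), 5 (1.14%), 25 (2.02%) and 2 (2.74%) were called higher. With a CG ratio of 0.75 and GC of 55%, 56.5% of member promoters stayed in the CpG class. At these limits the share was 65.6% for promoters of expressed coding genes and 35.3% for all promoters. No named gene's difference between the clones was reversed. The direction of the uncalled GSK126 differences was not stable. The replicate block turned 11 of 76 (DSP from 0.42 to -0.27, NID2 from -0.07 to 0.07, SERPINB6 from -0.04 to 0.24) and changed no member's call. Leaving out 1 library, which mixes treatment with clone, put all 76 on 1 side. For members, 55 of the log2 differences under an alternative moved by more than their standard error and 629 did not, and for other named genes 89 calls were lost and 737 were not.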

Other observations

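Outside the coding members, 12 genes that are non-coding or were not matched to the annotation met the same limits. EMSLR, a long non-coding RNA, had 273 counts in parental cells, 248 and 212 in clone 3, and 0 and 2 in clone 4. ALDH1A3-AS1, which overlaps the member LRRK1 on the opposite strand, had 32, 47, 61, 2 and 1 counts. ARHGEF34P had 993, 617, 564, 48 and 79 counts and HLA-H had 98, 86, 84, 6 and 9. Both are pseudogenes similar in sequence to members (ARHGEF5 and HLA-B), and how shared reads were divided was not tested.

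The same limits with the clones exchanged (both clone 3 libraries at most 0.2 times parental, both clone 4 libraries at 0.5 to 2 times) held for 6 genes, or 0.0512% of the expressed coding genes, against 76 for clone 4. Of the 446 expressed coding genes at most 0.2 times parental in both clone 4 libraries, 183 were also at most 0.2 times parental in both clone 3 libraries.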
